A study of Homo sapiens with 24 samples.

Results

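The lysosome and autophagy genes comprised 38 genes of the 58051 gene identifiers in the files, chosen by name and role, with earlier results of these data known. They encode 7 acid proteases, 13 glycosidases and sulfatases, 6 proteins of lipid breakdown and cholesterol exit, 3 membrane proteins, 4 parts of the proton pump V-ATPase, 4 autophagy proteins and the transcription factor TFEB. Each gene was compared between KO and WT clones within a line, and clone by clone. RNA of HT29, HCT116 and SW480, which are established human colorectal cancer cell lines, had been sequenced in 24 libraries. HT29 and SW480 carry inactivating APC mutations, and HCT116 a gain-of-function mutation of CTNNB1, the gene of β-CATENIN. In the KO clones exon 7 of both CTNNB1 alleles had been removed with CRISPR/Cas9, which shifts the reading frame. The WT clones had gone through the same CRISPR/Cas9 exposure and cloning but had kept the CTNNB1 sequence of their line. All clones were grown in the same DMEM-based medium with fetal calf serum. The clones were WT 11, WT 40, KO 28 and KO 38 in HT29, WT 4, WT 6, KO 44 and KO 47 in HCT116, and WT 4, WT 5, KO 17 and KO 21 in SW480. Every clone grew from a single cell and yielded a library in round A and another in round B. A group of 4 libraries thus holds 2 clones. By the study's description, SW480 KO clones stop dividing and stain for β-galactosidase when cultured for long.

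Lysosomes are acidic compartments in which proteases, glycosidases, sulfatases and lipases digest material delivered by endocytosis and autophagy. The V-ATPase acidifies them, LAMP proteins line their membrane, and autophagy proteins enclose cytoplasm in autophagosomes that fuse with them. TFEB binds a short sequence, the CLEAR element, near many lysosomal genes and raises their transcription when it enters the nucleus, a step that is set by phosphorylation of the protein rather than by its transcript level.

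Values are gene counts divided by the size factor of the library and are called normalized counts. Reads on genes numbered 22297049 in the shallowest library and 29068378 in the deepest. CTNNB1 itself fell from 6021 ± 99.3 (SD, n = 4) to 300 ± 34.1 in HT29, from 11918 ± 999.9 to 218 ± 28.9 in HCT116 and from 46967 ± 4376 to 1024 ± 229 in SW480. The epithelial transcripts EPCAM, KRT8 and KRT18 were present in every library, whereas CDH1 ran from only 20.2 to 85.9 in SW480, CDX2 from 1.98 to 19.9 in HT29 and VIL1 from 0 to 5.35 in HCT116. Among markers of other cell types, the leukocyte gene PTPRC did not exceed 4.28 in any library and COL1A1 ran from 12.2 to 437.9, VIM from 10674 to 29059 in SW480 but not above 32.3 elsewhere, and CD14 from 0 to 324. PECAM1 was not matched by name. In bulk RNA, fewer cells that express a gene and less RNA per cell cannot be told apart.

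Loss of β-CATENIN in SW480 was accompanied by higher transcript levels of 20 of the 38 genes and lower levels of 3, namely FUCA1, NPC2 and GABARAPL1. Calls rest on limma with a Benjamini-Hochberg adjusted p under 0.05 over all genes tested. Among all genes tested in SW480, 26.1% were called higher and 22.1% lower. Cell type markers moved with the genotype in the same libraries. VIM rose from 11626 ± 976 to 26787 ± 1675 (SD, n = 4) and CD14 from 37.4 ± 6.92 to 172 ± 28.4, whereas EPCAM fell from 1645 ± 462 to 818 ± 175 and CDX2 from 1097 ± 263 to 106 ± 55.8. KRT8, KRT18, CDH1, VIL1 and COL1A1 were not called, PTPRC was at 0 in all WT libraries and at most 2.8 in KO libraries, and the part of these shifts in the counts of lysosomal genes was not tested. In HCT116, 9 of 37 genes were higher in KO clones and 0 were lower by limma, where 8.05% and 5.93% of all genes were called. HT29 had 4 of 38 genes higher, CTSL, LIPA, MAP1LC3B and WIPI1, and 0 lower by limma, beside 2.08% and 0.476% of all genes. None of the fallen values in HT29 or HCT116 had an unadjusted p under 0.05 by limma, edgeR or DESeq2, a count of 0 in each, while 10 and 14 risen ones did by limma. Among all genes tested, 2417 of 14921 in HT29 and 4553 of 15404 in HCT116 did so by limma, in either direction. CTSS in HCT116, with a mean of 2.1 in WT and 6.33 in KO libraries, did not pass the filter on low values. An absolute log2 fold change over 1 was reached by 2 called genes of HT29, 2 of HCT116 and 7 of SW480, against 2.3%, 5.06% and 17.5% of all genes.

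The median log2 fold change of the 38 genes was 0.27 in HT29, 0.21 over 37 genes in HCT116 and 0.39 in SW480, whereas the medians over all genes tested were 0.03, -0.01 and -0.0042 in the same order. Fold changes were positive for 34 of 38 genes in HT29, 28 of 37 in HCT116 and 30 of 38 in SW480, where those of all genes tested were positive for 53.0%, 48.3% and 49.7%. All 4 KO libraries lay above all 4 WT libraries for 8 genes of HT29, 12 of HCT116 and 20 of SW480, where the shares of all genes were 8.31%, 10.9% and 25.3%. The opposite order was found for 0, 0 and 2 genes, beside 4.71%, 9.61% and 20.9% of all genes. No gene was called in all 3 lines.

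How far these calls hold differed between lines. Rounds A and B were independent repeats of the same clones, and the p-values treat them as replicates of the genotype although only 2 clones stand behind each group. With the rounds of each clone averaged and 2 clones set against 2, no gene of the 38 stayed called higher in HT29, 2 did in HCT116 and 13 in SW480. Among all genes tested, the same fit called 0 of 14921 higher in HT29, 273 of 15404 in HCT116 and 2312 of 16325 in SW480. Over 21 alternative settings, all 21 kept the call and direction of 15 of the 23 genes in SW480, of CTSB and SMPD1 in HCT116, and of 0 of 4 in HT29. In HT29 the number higher was 0 or 1 when any library other than KO 38B was left out and 5 without KO 38B. It was also 0 when the clone entered the fit as a random effect. Among all genes tested in HT29, 311 were called higher in the main fit and 102 with the random effect. Leaving out a library gave 274 without KO 38B and 90 to 166 without any other.

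Promoter sequence was searched for the CLEAR element because these genes are its known carriers. A promoter was available for 27 of the 38 genes in the RefSeq table for GRCh38.p14, and the 250 bases before each listed start site were searched on both strands. TCACGTGA, the full palindrome, was found at 5 of the 27 genes (18.5%), as compared with 1.04% of 27305 genes with a promoter in the table. The shorter TCACGTG, which contains CACGTG and is contained in the palindrome, was present at 7 genes (25.9%) against 4.02% of all, and CACGTG at the same number (25.9%) against 7.73%. The TCF/LEF motifs CTTTGAT and CTTTGAA were found at 0 of the 27 genes, and at 2.75% and 4.71% of all genes. These matches describe letters in a window. For each of the 7 genes, the copy nearest to the start site is shown with up to 20 bases on either side of its CACGTG core, capitals marking TCACGTGA or, where it is absent, TCACGTG, which stands as CACGTGA on the strand shown for CTSD.
CTSA, chr20:45891290-45891334, plus strand: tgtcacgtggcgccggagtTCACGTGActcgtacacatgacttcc
CTSD, chr11:1763949-1763994, minus strand: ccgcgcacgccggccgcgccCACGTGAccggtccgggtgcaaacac
NEU1, chr6:31862922-31862967, minus strand: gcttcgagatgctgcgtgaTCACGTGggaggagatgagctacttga
GAA, chr17:80101530-80101575, plus strand: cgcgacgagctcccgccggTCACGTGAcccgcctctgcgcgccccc
LAMP1, chr13:113297191-113297236, plus strand: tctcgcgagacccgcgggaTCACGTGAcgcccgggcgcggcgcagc
MCOLN1, chr19:7522590-7522623, plus strand: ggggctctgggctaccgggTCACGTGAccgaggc
ATP6V0D1, chr16:67481191-67481236, minus strand: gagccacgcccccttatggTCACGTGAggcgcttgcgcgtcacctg
The capitals begin 15 bases before the start site in MCOLN1, 26 in CTSA, 29 in LAMP1, 32 in GAA, 47 in CTSD, 60 in ATP6V0D1 and 127 in NEU1. Of these 7 genes, CTSA, CTSD, NEU1 and ATP6V0D1 were called higher in SW480 KO clones, beside 20 of all 38 genes and 26.1% of all genes tested. The call of NEU1 was kept under 8 of 21 alternatives. GAA, LAMP1 and MCOLN1 were not called in any line.

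Of the 7 acid proteases, 5 were called higher and 0 lower in SW480, beside 26.1% and 22.1% of all genes, and CTSB and CTSH did not pass the test. HCT116 had 2 of 6 called higher, CTSB and CTSD, beside 8.05% of all genes, and HT29 1 of 7, CTSL, beside 2.08%. CTSS encodes cathepsin S, which is best known for trimming the invariant chain in antigen-presenting cells (chromosome 1, 150702555 to 150738433, GRCh37, minus strand). In SW480 its normalized counts were 50.5 and 16.5 in WT 4A and 4B, 78.2 and 51.9 in WT 5A and 5B, 774 and 648 in KO 17A and 17B, and 888 and 771 in KO 21A and 21B. Every KO library was thus far above every WT library, and the log2 fold change was 4.12 (SE 0.39, adjusted p = 1.7e-05). CD14 moved alongside, with a WT range of 32.3 to 47.5 and a KO range of 150.5 to 211, while PTPRC ran from 0 to 2.8 in these libraries. Each clone had grown from a single cell of the line, and the cause of these shifts was not tested.

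CTSD, the aspartic protease cathepsin D (chromosome 11, 1773982 to 1785803, GRCh37, minus strand), had the second largest change among the proteases of SW480. Its counts were 2708, 1877, 2704 and 2365 in WT 4A, 4B, 5A and 5B, and 12447, 13051, 12258 and 10893 in KO 17A, 17B, 21A and 21B. The KO clones did not overlap with the WT clones and lay close to each other, with a log2 fold change of 2.35 (SE 0.12, adjusted p = 1.2e-07). In HCT116 CTSD was lower overall and rose from 1126 ± 193 to 1777 ± 344 (SD, n = 4), by 0.66 on the log2 scale (adjusted p = 0.018). The HCT116 call was lost without WT 4B or without WT 6A. It was also lost without clone KO 44 or clone WT 6, with the clone as a random effect and with averaged rounds. In HT29 the libraries WT 11A and 11B held 2637 and 3625, WT 40A and 40B 10546 and 11089, KO 28A and 28B 17102 and 14544, and KO 38A and 38B 4500 and 12227. The WT clones of HT29 stood far apart and the groups overlapped, and the fold change of 0.90 was not called (adjusted p = 0.46).

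Cathepsin L, the cysteine protease encoded by CTSL (chromosome 9, 90338966 to 90346384, GRCh37, plus strand), was called in HT29 and in SW480. In HT29 it stood at 236, 240.2, 279 and 219 in WT 11A, 11B, 40A and 40B, and at 573, 495 and 735 in KO 28A, 28B and 38A and 1075 in KO 38B. The lowest KO library was well above the highest WT library, with a log2 fold change of 1.50 (SE 0.25, adjusted p = 0.019). This call was kept under 11 of 21 alternatives, among them 2 of 8 fits without a library. SW480 had 1588, 1344, 1249 and 1135 in the WT libraries in the same order of clones, 2109 and 2194 in KO 17 and 3346 and 3219 in KO 21. The groups did not overlap and the log2 fold change was 1.01 (SE 0.17, adjusted p = 0.00072). HCT116 cells already held 2024 ± 185 in WT libraries, with 2351 ± 297 in KO libraries (adjusted p = 0.25).

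Cathepsin B, a cysteine protease encoded by CTSB, was called in HCT116 alone. WT 4A, 4B, 6A and 6B held 4521, 3659, 3873 and 3162 normalized counts, and KO 44A, 44B, 47A and 47B held 7543, 6173, 6760 and 6035. The ranges did not overlap, and the log2 fold change was 0.81 (SE 0.12, adjusted p = 0.0014). CTSA, the protective protein of the β-galactosidase and neuraminidase complex, and TPP1, tripeptidyl peptidase, were called in SW480, with log2 fold changes of 0.73 and 0.62.

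Among the 13 glycosidases and sulfatases, which cut sugars and sulfate groups from glycans, 5 were higher and 1 lower in SW480, beside 26.1% and 22.1% of all genes. In HCT116 2 were higher, beside 8.05%. In HT29 0 were called by limma, beside 2.08% of all genes called higher, while 2 had an unadjusted p under 0.05 and DESeq2 called 2. Of all 14921 genes tested there, 2417 had an unadjusted p under 0.05 by limma in either direction. DESeq2 called 874 of them higher and 355 lower. SGSH, the sulfamidase of heparan sulfate breakdown (chromosome 17, 78180515 to 78194722, GRCh37, minus strand), changed most. SW480 WT 4A, 4B, 5A and 5B had 51.6, 50.5, 32.8 and 18.6, KO 17A and 17B had 368 and 343, and KO 21A and 21B had 154 and 129. Both KO clones were above both WT clones, with KO 17 the higher one, and the log2 fold change was 2.62 (SE 0.42, adjusted p = 0.0006). SLC26A11, which shares exon bases with SGSH on the other strand, ran from 3.12 ± 2.05 to 30.1 ± 17 in the same libraries, and its part in the SGSH counts was not tested. HT29 held 185 and 199.7 in WT 11, 21.7 and 27.6 in WT 40, 112 and 104 in KO 28, and 433 and 438 in KO 38. The groups overlapped there (adjusted p = 0.38), since the WT clones alone differed by -2.92 on the log2 scale. In HCT116, where levels were higher, SGSH was called with a log2 fold change of 0.45, and that call was lost under 13 of 21 alternatives.

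IDUA, the iduronidase that acts on heparan and dermatan sulfate (chromosome 4, 980785 to 998352, GRCh37, plus strand), was called in HCT116. WT 4A, 4B, 6A and 6B held 61.5, 62.2, 35.1 and 39, and KO 44A, 44B, 47A and 47B held 152, 202, 74.9 and 69.5. All KO libraries were above the WT libraries, but KO 44 was above KO 47 by more than KO 47 was above WT 4. The log2 fold change was 1.22 (SE 0.36, adjusted p = 0.043), and with the round as a replicate block it was no longer called (adjusted p = 0.052). It was also lost without KO 44A, KO 44B, WT 4B, WT 6A or WT 6B. SLC26A1, which overlaps IDUA on the other strand, ran from 24.4 ± 3.85 to 42.3 ± 16.1 (adjusted p = 0.12), and its part in the IDUA counts was not tested.

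FUCA1, the lysosomal α-fucosidase (chromosome 1, 24171567 to 24194780, GRCh37, minus strand), went the opposite way in SW480. WT 4A, 4B, 5A and 5B held 4331, 4127, 4979 and 4997, and KO 17A, 17B, 21A and 21B held 2134, 1998, 2704 and 2292. No KO library reached a WT library, and the log2 fold change was -1.02 (SE 0.10, adjusted p = 2e-05). In HT29 and HCT116 FUCA1 had fold changes of 0.25 and 0.41 that were not called.

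GLB1 encodes the lysosomal β-galactosidase (chromosome 3, 33038101 to 33138694, GRCh37, minus strand). SW480 WT 4A, 4B, 5A and 5B held 2445, 2325, 2500.01 and 2267, KO 17A and 17B held 2732 and 2726, and KO 21A and 21B held 3586 and 2983. The KO libraries were all above the WT libraries, by a log2 fold change of 0.33 (SE 0.09, adjusted p = 0.014), and the call was lost when the clone was a random effect, when rounds were averaged and when either WT clone was left out. In HT29 the values were 1340, 1446, 1078 and 1112 in WT 11A, 11B, 40A and 40B and 1566, 1524, 1423 and 920.5 in KO 28A, 28B, 38A and 38B. In HCT116 they were 1023, 989, 949 and 704 in WT 4A, 4B, 6A and 6B and 1157, 1084, 1043 and 997 in KO 44A, 44B, 47A and 47B. Both lines had overlapping groups, with adjusted p = 0.82 and 0.26. In HT29, NEU1, the neuraminidase, held 544, 799.78, 479 and 743 in WT 11A, 11B, 40A and 40B and 1060.13, 1073, 1199.9 and 1131 in KO 28A, 28B, 38A and 38B. The KO libraries were all above the WT libraries, and the log2 fold change of 0.83 missed the threshold (adjusted p = 0.066). HEXA, NEU1 and MANBA, which encode a hexosaminidase subunit, the neuraminidase and a mannosidase, were also called higher in SW480, with log2 fold changes of 0.58, 0.27 and 0.46. The call of NEU1 was lost with the replicate block and under 13 of 21 alternatives in all, among them the fits without KO 21A, KO 21B, WT 4A, WT 4B, WT 5A or WT 5B. That of MANBA was lost under 10 of 21, including those without KO 21A, KO 21B, WT 4A, WT 5A or WT 5B. GLA, GUSB, IDS, NAGLU, GAA and MAN2B1 were called in no line.

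Of the 6 proteins of lipid breakdown and cholesterol exit, 4 were higher and 1 lower in SW480, beside 26.1% and 22.1% of all genes. In HCT116 3 were higher, beside 8.05%, and in HT29 1, beside 2.08%. SMPD1, the acid sphingomyelinase (chromosome 11, 6411670 to 6416228, GRCh37, plus strand), was called in HCT116 and SW480. HCT116 WT 4A, 4B, 6A and 6B held 172, 142, 88.7 and 127, and KO 44A, 44B, 47A and 47B held 388, 316.5, 364 and 358. The KO clones were near each other and well above the WT clones, with a log2 fold change of 1.46 (SE 0.20, adjusted p = 0.00072). In SW480 SMPD1 rose from 811 ± 183 to 1459 ± 271 (SD, n = 4), by 0.86 on the log2 scale (adjusted p = 0.0024). HT29 cells held few transcripts, 69.1 ± 15.3 and 108 ± 36.6, and were not called (adjusted p = 0.36).

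LIPA, the lysosomal acid lipase that hydrolyses cholesteryl esters and triglycerides (chromosome 10, 90973326 to 91174314, GRCh37, minus strand), was called in HT29 and SW480. SW480 WT 4A, 4B, 5A and 5B had 1053, 949, 1076 and 878, and KO 17A, 17B, 21A and 21B had 2972, 2641, 2947 and 2505. With both KO clones at the same height, the log2 fold change was 1.48 (SE 0.09, adjusted p = 4.2e-07). HT29 WT 11A, 11B, 40A and 40B had 1114, 1191, 1187 and 1051, and KO 28A, 28B, 38A and 38B had 2602, 2400.23, 2122 and 1711. The KO range lay above the WT range, with a log2 fold change of 0.94 (SE 0.16, adjusted p = 0.022). The HT29 call was kept under 9 of 21 alternatives, among them 1 of 8 fits without a library. The interferon-induced genes IFIT2 and IFIT3 share exon bases with LIPA on the other strand, and in SW480 they moved from 21.9 ± 12.7 to 432 ± 77.8 and from 143 ± 42.4 to 944 ± 70.8. In HT29 KO libraries IFIT3 ran from 58.3 to 2762. Their part in the LIPA counts was not tested.

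PSAP, the precursor of the saposins that help degrade sphingolipids, was called in HCT116 and SW480. In SW480 it held 11439, 10886, 11670 and 11368 in WT 4A, 4B, 5A and 5B, 17603 and 17593 in KO 17, and 29864 and 27829 in KO 21. The WT clones were close to each other and the KO clones were not, and the log2 fold change was 0.99 (SE 0.17, adjusted p = 0.00093). HCT116 rose by 0.46 (adjusted p = 0.0098). ASAH1, the acid ceramidase, was called in SW480 with 0.67, and NPC1, the cholesterol exporter of the lysosomal membrane, in no line.

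NPC2, the soluble partner of NPC1 (chromosome 14, 74942895 to 74960880, GRCh37, minus strand), was higher in KO clones of HCT116 and lower in those of SW480. SW480 WT 4A and 4B held 23484 and 23027, WT 5A and 5B 13071 and 12067, KO 17A and 17B 7885 and 8352, and KO 21A and 21B 12721 and 11823. KO 21 and WT 5 overlapped, while WT 4 and KO 17 stood at the extremes, and the log2 fold change was -0.78 (SE 0.25, adjusted p = 0.030). Its call was lost when WT 4A, WT 4B, KO 17A or KO 17B was left out. In HCT116 NPC2 moved from 1516 ± 236 to 2081 ± 316, a log2 fold change of 0.46 (adjusted p = 0.049), with overlapping libraries, and the call was lost without KO 44A, KO 44B, KO 47A, WT 4B, WT 6A or WT 6B. HT29 went from 696 ± 101 to 1537 ± 630 without overlap, and the fold change of 1.07 was not called (adjusted p = 0.075).

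LAMP1, the most abundant protein of the lysosomal membrane (chromosome 13, 113951554 to 113977987, GRCh37, plus strand), was not called in any line. HT29 WT 11A, 11B, 40A and 40B held 13692, 14952, 11815 and 11391, and KO 28A, 28B, 38A and 38B held 12632, 12522, 10872 and 12241. HCT116 WT 4A, 4B, 6A and 6B held 7984, 8443, 7348 and 7869, and KO 44A, 44B, 47A and 47B held 7559.69, 7836, 7736 and 8879. SW480 WT 4A, 4B, 5A and 5B held 9820.19, 8770.09, 6837 and 5910.3, and KO 17A, 17B, 21A and 21B held 7876, 7915, 6279.58 and 6040.45. The groups overlapped in all 3 lines, with log2 fold changes of -0.10, 0.02 and -0.14 and SEs of 0.14, 0.09 and 0.16. LAMP2, its relative that also serves chaperone-mediated autophagy, was called in SW480 with 0.52, and the calcium channel gene MCOLN1 in no line.

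Of the 4 V-ATPase genes, ATP6V0D1, ATP6V1A and ATP6V1H were called higher in SW480, with log2 fold changes of 0.37, 0.62 and 0.47, beside 26.1% of all genes. ATP6V1A encodes the catalytic subunit of the pump. The accessory gene ATP6AP1 was called in HCT116 alone, with 0.36, beside 8.05% of all genes. Its call was kept under 11 of 21 alternatives. None of the 4 was called in HT29, beside 2.08% of all genes called higher. There 1 had an unadjusted p under 0.05, beside 2417 of all 14921 genes tested. In HT29 and HCT116 ATP6V1A had fold changes of -0.20 and -0.01.

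Of the 4 autophagy genes, 2 were called higher in HT29, 1 in HCT116 and 2 in SW480, beside 2.08%, 8.05% and 26.1% of all genes. In SW480 1 was lower, beside 22.1%. SQSTM1 encodes p62, the receptor that links ubiquitinated cargo to autophagosomes (chromosome 5, 179233398 to 179265078, GRCh37, plus strand). HCT116 WT 4A, 4B, 6A and 6B held 6554, 6403, 4684 and 5725, KO 44A and 44B held 7074 and 9220.12, and KO 47A and 47B held 12179 and 10521. The KO libraries were all above the WT libraries, by 0.72 on the log2 scale (SE 0.16, adjusted p = 0.014). This HCT116 call was lost without clone KO 47, without clone WT 6 and with averaged rounds. SW480 WT 4A, 4B, 5A and 5B held 7822, 7225, 6819.54 and 6944, and KO 17A, 17B, 21A and 21B held 9181, 8454, 10039.86 and 10750.3, with a log2 fold change of 0.41 (SE 0.08, adjusted p = 0.0024). In HT29 WT 11A, 11B, 40A and 40B had 6456, 7338, 9235 and 9921 and KO 28A, 28B, 38A and 38B had 7749.82, 8229, 12771 and 7736, and the groups overlapped (adjusted p = 0.78). SQSTM1 shares 1687 exon bases with MGAT4B and MRNIP on the other strand. MGAT4B was higher in HCT116 KO clones too, by 0.60 (adjusted p = 0.0049), and its part in the SQSTM1 counts was not tested.

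WIPI1 encodes a phosphoinositide-binding protein of the forming autophagosome (chromosome 17, 66417089 to 66453654, GRCh37, minus strand). HT29 WT 11A, 11B, 40A and 40B had 92.2, 103, 55.3 and 78.9, and KO 28A, 28B, 38A and 38B had 244, 220.2, 395.5 and 220.4. All KO libraries exceeded the highest WT library, with a log2 fold change of 1.69 (SE 0.29, adjusted p = 0.020). ARSG, which overlaps WIPI1 on the other strand, was not called in HT29 (adjusted p = 0.89). WIPI1 was also called in SW480, with 0.56, and had -0.30 in HCT116 (adjusted p = 0.49). MAP1LC3B, the LC3 protein that coats autophagosomes, went from 1222 ± 97.4 to 2142 ± 428.5 in HT29, a log2 fold change of 0.79 (adjusted p = 0.049). That value sits at the threshold, and its call was lost under 17 of 21 alternatives. Reads of MAP1LC3B can be shared with its near-identical copy MAP1LC3B2.

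GABARAPL1, another protein of the LC3 family (chromosome 12, 10365057 to 10375727, GRCh37, plus strand), was lower in the KO clones of SW480. WT 4A, 4B, 5A and 5B held 5663, 5978, 7464 and 7496, KO 17A and 17B held 1819 and 1710.17, and KO 21A and 21B held 2963 and 2898. KO clones retained 35.3% of the WT mean, and the log2 fold change was -1.54 (SE 0.19, adjusted p = 0.00012). In HT29 GABARAPL1 stood at 173 and 159 in WT 11, 85 and 132 in WT 40, 226 and 155 in KO 28, and 673 and 735 in KO 38. Both KO 38 libraries stood far above the others, KO 28B lay within the WT range, and the fold change of 1.45 was not called (adjusted p = 0.21).

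TFEB transcripts (chromosome 6, 41651716 to 41703997, GRCh37, minus strand) were not called in any line, with log2 fold changes of 0.11 in HT29, 0.41 in HCT116 and 0.21 in SW480 and SEs of 0.36, 0.19 and 0.15. HT29 held 397 and 425 in WT 11, 732 and 853 in WT 40, 941 and 827 in KO 28, and 386 and 472 in KO 38. Clones of either genotype were found at both levels, and the WT clones differed by 0.94 (SE 0.20) and the KO clones by -1.05 (SE 0.20) on the log2 scale. HCT116 held 149.5, 158, 104 and 129 in WT 4A, 4B, 6A and 6B and 222, 186, 171 and 143 in KO 44A, 44B, 47A and 47B. SW480 held 165, 133, 144 and 154 in WT 4A, 4B, 5A and 5B, 139 and 154 in KO 17, and 205 and 199.7 in KO 21. In HCT116 and SW480 the groups overlapped.

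Differences between lines were tested as the difference of the KO effects in a fit of all 24 libraries. Between HT29 and HCT116, 5 of 38 genes had a different KO effect, beside 7.25% of all genes. These were CTSL, LIPA, MAP1LC3B, GABARAPL1 and WIPI1, and all 5 effects were higher in HT29, by 0.72 to 1.99 on the log2 scale. Between HT29 and SW480, 8 genes differed, beside 15.8% of all genes. CTSS had the largest difference, at -4.84 (SE 1.55) for HT29 minus SW480. Its HT29 effect was the mean of 2 clones with opposite signs, 2.47 in KO 28 and -3.91 in KO 38. The effects of CTSA and ATP6V1A were also higher in SW480. That of GABARAPL1 was 2.98 (SE 0.50) higher in HT29, where NPC2, FUCA1, WIPI1 and MAP1LC3B had the higher effects too. Between HCT116 and SW480, 6 genes differed, beside 13.2% of all genes. The effects of CTSD, LIPA, TPP1 and ATP6V1A were higher in SW480, by 0.62 to 1.69, and those of FUCA1 and NPC2 were higher in HCT116, by 1.43 and 1.23. These 3 comparisons share their libraries with the comparisons within lines.

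Each KO clone was also set against both WT clones of its line, and the comparisons of a line therefore share their WT libraries. In SW480, KO 21 alone had 29 of 38 genes higher and 2 lower, with 26.4% and 24.5% of all genes called, and a median log2 fold change of 0.61. KO 17 alone had 19 higher and 4 lower, with 23.3% and 23.0% of all genes called, and a median of 0.19. In HT29, KO 28 alone had 6 higher and 0 lower by limma, beside 4.06% and 1.57%, and KO 38 alone 4 higher and 1 lower, beside 2.21% and 1.73%. In HCT116, KO 44 alone had 12 higher and 2 lower, beside 9.75% and 8.99%, and KO 47 alone 4 higher and 1 lower, beside 4.73% and 3.48%.

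**Figure D1:**
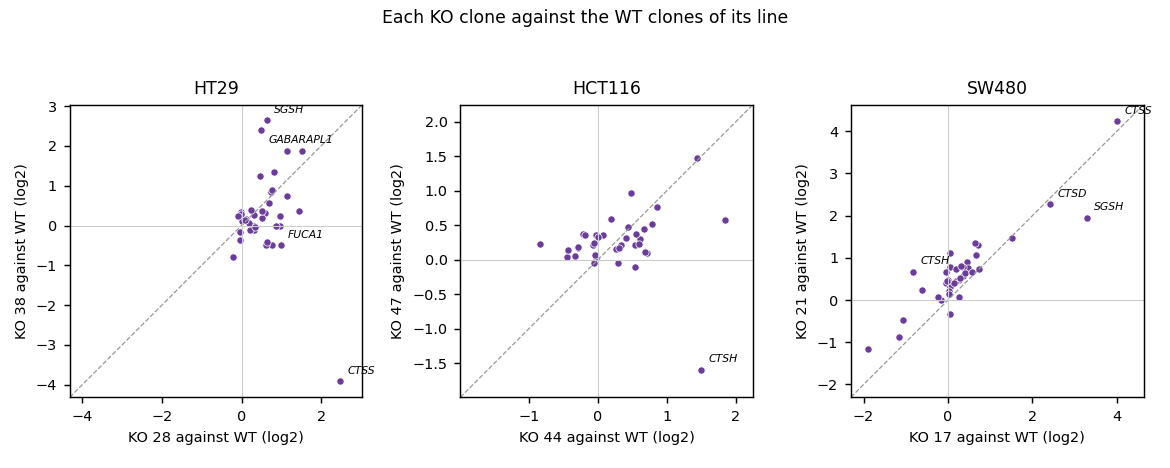
Log2 fold change against the WT clones of the line for one KO clone (x axis) and for the other (y axis), 1 point per gene, with the dashed line marking equal values; the axes share the WT libraries. CTSS in HT29 and CTSH in HCT116 stand at opposite signs, and most genes of SW480 lie above the line, on the side of KO 21.

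The proteases CTSS and CTSH moved in opposite directions in the KO clones of a line, and both were singled out after their values had been seen. CTSS in HT29 held 384 and 359 in WT 11, 260 and 234 in WT 40, 1879 and 1505 in KO 28, and 25.6 and 14.3 in KO 38. Against the WT clones the log2 fold change was 2.47 (SE 0.24) for KO 28 and -3.91 (SE 0.36) for KO 38, and the mean over both was not called (adjusted p = 0.84). CTSH, the aminopeptidase cathepsin H, held 367, 296, 335 and 280 in HCT116 WT 4A, 4B, 6A and 6B, 933 and 867 in KO 44, and 121 and 90.4 in KO 47. Its log2 fold changes were 1.50 (SE 0.16) and -1.59 (SE 0.20), neither near the WT level. In SW480, where CTSH ran from 94.6 to 126 in WT libraries, KO 17 was lower, at -0.83 (SE 0.19), and KO 21 higher, at 0.68 (SE 0.17).

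Clones of the same genotype were compared directly, the clone with the higher number minus the one with the lower number, with p-values that cover rounds only. Between the SW480 KO clones 29 of 38 genes differed, 27 of them higher in KO 21, where 15.3% of all genes were called, and 2 lower, SGSH and LAMP1, where 12.7% were called. Their median difference was 0.29 on the log2 scale. Gains in KO 21 included CTSH by 1.51 (SE 0.19), IDUA by 1.05 (SE 0.16), CTSB by 0.85 (SE 0.10), GAA by 0.74 (SE 0.10) and PSAP by 0.71 (SE 0.07). CTSB was not called between the genotypes of SW480. WT 4 held 30139 and 28962, WT 5 13723 and 10234, KO 17 12381 and 12107, and KO 21 22359.99 and 21787. The clones of each genotype thus lay apart and the genotypes overlapped.

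Between the SW480 WT clones, 1 gene was higher and 6 were lower in WT 5, with 4.89% and 3.99% of all genes called. The HT29 WT clones had 5 genes higher and 2 lower in WT 40, beside 4.08% and 4.94%, and the HT29 KO clones 2 higher and 6 lower in KO 38, beside 7.18% and 8.87%. The HCT116 KO clones had 5 higher and 4 lower in KO 47, beside 3.6% and 3.56%, a total of 9 that became 17 with the round as a replicate block, where the share of all genes called in either direction was 21.5%. By limma 0 of 37 genes were called higher or lower between the HCT116 WT clones, beside 1.36% and 1.25% of all genes. Of the 37, 5 had an unadjusted p under 0.05 by limma, beside 2724 of all 15404 genes tested. With edgeR 0 of the 37 were called, beside 185 higher and 212 lower among all genes. With the block, 3 were called, beside 16.2% of all genes. The strip plot of these differences shows the shift of the SW480 KO clones as a whole.

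**Figure D2:**
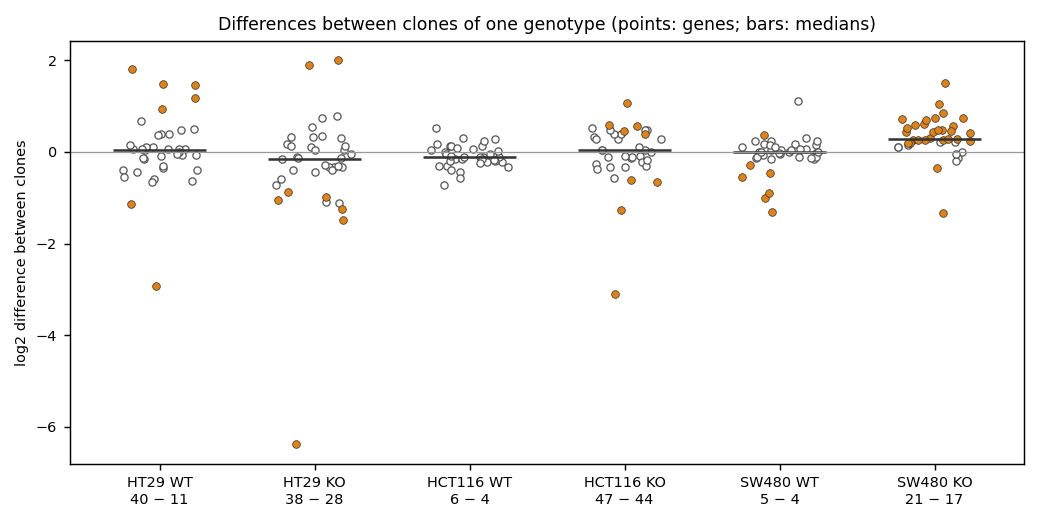
Log2 difference between the clones of one genotype (y axis) for each of the 6 pairs (x axis, in the order of subtraction), 1 point per gene, filled where called, with bars at the medians. The SW480 KO clones have their points mostly above 0, with a median of 0.29, whereas the other medians lie between -0.15 and 0.05.

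Together the 38 genes took a small share of all reads on genes. HCT116 WT libraries spent 0.244% to 0.290% of their reads on them and KO libraries 0.321% to 0.335%, without overlap. The corresponding ranges were 0.315% to 0.398% and 0.357% to 0.487% in HT29, and 0.442% to 0.558% and 0.523% to 0.687% in SW480. These ranges overlapped in both lines, with KO 28 and KO 21 at the top. Levels were compared between genes only as reads per kilobase of exon, scaled to the reads of the library. On this scale PSAP was the highest of the 38 in either genotype of HT29 and HCT116, with 209 ± 34.3 and 304 ± 20.2 in HT29 WT and KO and 160.1 ± 17.1 and 218 ± 23.2 in HCT116 (SD, n = 4). SW480 WT libraries had NPC2 first, at 269 ± 88.6, and PSAP second, at 142 ± 6.09, and their ranges did not overlap. KO libraries had PSAP first, at 285 ± 78.9, and NPC2 second, at 151 ± 35.2, again without overlap.

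Other genes of the pathway were taken from 5 fixed lists with 153 genes. Beside their counts stand the shares of all genes called higher and lower. These were 26.1% and 22.1% in SW480, 8.05% and 5.93% in HCT116, and 2.08% and 0.476% in HT29. Of the other lysosomal enzymes and membrane proteins, 24 of 47 tested were higher and 5 lower in SW480, 6 and 1 of 43 in HCT116, and 1 and 0 of 43 in HT29. The largest change belonged to LAPTM5, a lysosomal membrane protein best known from blood cells, which went from 130 ± 15.4 to 8248 ± 1453 in SW480 (log2 fold change 5.97, SE 0.14, adjusted p = 1.3e-09). ARSA, arylsulfatase A, led this list in HT29 and HCT116, with log2 fold changes of 1.42 and 1.24. Of the other V-ATPase subunits, 6 were higher and 5 lower of 18 in SW480, 3 and 1 of 17 in HCT116, and 2 and 0 of 17 in HT29, where ATP6V1B1 rose from 239.7 ± 106 to 1047 ± 444. Genes for sorting enzymes to lysosomes had 7 higher and 4 lower of 16 in SW480, 1 and 0 of 16 in HCT116 and none of 16 in HT29, and SORT1, the sorting receptor sortilin, was the most changed, at -0.71 in SW480.

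Of the other autophagy genes, 18 of 39 were higher and 2 lower in SW480, 6 and 0 of 40 in HCT116, and 4 and 0 of 40 in HT29. ULK1, the kinase that starts autophagy, went from 409 ± 38.5 to 1186 ± 138 in HT29 (log2 fold change 1.53, SE 0.16, adjusted p = 0.0017), and OPTN, a cargo receptor, from 2354 ± 103 to 5308 ± 885 in SW480. Relatives of TFEB and genes of nutrient sensing had 5 higher and 1 lower of 23 in both SW480 and HCT116. The shares of all genes were 26.1% and 22.1% in SW480 and 8.05% and 5.93% in HCT116. In HT29 1 of 22 was higher and 0 lower, beside 2.08% and 0.476% of all genes. That gene was MITF, a transcription factor of the TFEB family, with 4.88 ± 4.60 in WT and 139 ± 52.1 in KO libraries (log2 fold change 5.01, SE 0.73, adjusted p = 0.011). PPP3CA, the catalytic subunit of calcineurin, which dephosphorylates TFEB, was the most changed in the other lines and in opposite directions. It fell from 3939 ± 317 to 1365 ± 339 in HCT116 and rose from 1019 ± 94.7 to 3172 ± 312 in SW480, and the effects differed by -3.20 (SE 0.22, adjusted p = 9.8e-10).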

How the data were processed

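RNA of 24 libraries had been prepared with the unstranded TruSeq v2 kit and, per the submitters' processing notes, aligned with STAR 2.7.5b and counted with featureCounts 2.0.1 on GRCh37. The unit is signal: before depositing them, the authors had scaled each gene count by the DESeq2 size factor of its library. Whole reads were recovered for 100% of values (tolerance 0.001). The authors' own comparison tables, which hold fold changes and p-values, were not used. The 38 genes and the context lists were chosen with earlier results of these data known.

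Tests used limma 3.58.1 (trend, robust) on log2 of the value plus 1, for genes that reached 10 in 4 or more libraries, with Benjamini-Hochberg adjustment over all genes tested. An added pseudocount understates changes of low genes. The script was tested on simulated data. Alternatives were DESeq2 1.42.0, edgeR 4.0.16 with TMM, pseudocounts of 0.1 and 5, 2 filters, the round as a block, the clone as a random effect, averaged rounds, and libraries or clones left out. Rounds deviated together in HCT116, where all 6 correlations of round differences between clones, across genes, exceeded 0.1, in 2 of 6 in HT29 and 1 of 6 in SW480.

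Values in every library are given for genes past an adjusted p of 0.05 and an absolute log2 fold change of 1, the 3 largest rises and the 3 largest falls among called genes of a line, and TFEB, GLB1, LAMP1 and SQSTM1. Others with such values (CTSS, SGSH, CTSD, NEU1 and GABARAPL1 in HT29, CTSH in HCT116, CTSB and PSAP in SW480) were added after their values had been seen. Of the 38 genes, 24 share exon bases with another annotated gene, and reads of either strand cannot be told apart. The annotation used by the authors is not given in the sources used here. Gene positions come from GENCODE v44 on GRCh37. R 4.3.3 and Python 3.11.15 were used.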

Additional observations from a re-analysis of the deposited data

Results flagged for a closer look

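Among 72 groups of 4 libraries whose values were looked at, 3 had 1 library far from the other 3 by Dixon's criterion, and chance gives about 1 in 20. These were SQSTM1 in HT29 KO 38A at 12771, WIPI1 in HT29 KO 38A at 395.5 and CTSD in HCT116 KO 44B at 2293. The HT29 call of WIPI1 was lost without KO 38A, and equally without KO 28A, KO 28B, WT 11A, WT 40A or WT 40B. That of CTSD in HCT116 held without KO 44B but was lost without both libraries of clone KO 44.

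The KO effect differed between lines for the following genes by a test of the difference, given on the log2 scale with limma's adjusted p. HT29 minus HCT116 was 1.29 for CTSL (adjusted p = 0.0045), 0.72 for LIPA (0.047), 0.72 for MAP1LC3B (0.032), 1.65 for GABARAPL1 (0.047) and 1.99 for WIPI1 (0.0010). HT29 minus SW480 was -0.67 for CTSA (0.0076), -4.84 for CTSS (0.036), 1.26 for FUCA1 (0.034), 1.85 for NPC2 (0.00042), -0.81 for ATP6V1A (0.0012), 0.67 for MAP1LC3B (0.026), 2.98 for GABARAPL1 (0.00017) and 1.13 for WIPI1 (0.033). For CTSS the HT29 clones had opposite effects, 2.47 in KO 28 and -3.91 in KO 38. HCT116 minus SW480 was -1.69 for CTSD (0.041), -0.76 for TPP1 (0.015), 1.43 for FUCA1 (0.019), 1.23 for NPC2 (0.017), -1.26 for LIPA (0.00030) and -0.62 for ATP6V1A (0.014).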

How the results depend on the processing

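Of 252 alternative counts, 185 stayed within 1.5 times the main count. In HT29 the 4 genes called higher became 9 with DESeq2 and 0 with the clone as a random effect or with averaged rounds, and the 2 past both thresholds became 4, 0 and 0. Leaving out a library gave 0 to 5 higher and 0 to 3 past both thresholds, and leaving out a clone 0 to 6 higher, 0 to 1 lower and 0 to 5 past both. In HCT116 the 9 higher became 4 with the clone as a random effect and 2 with averaged rounds, and the 2 past both thresholds became 1 in either fit and 1 with the replicate block. Libraries left out gave 4 to 10 higher and 1 to 2 past both, and clones 4 to 12, with 0 to 2 lower and 1 to 3 past both. The HCT116 count was 5 without KO 44B and 4 without WT 4B or WT 6A. In SW480 the 20 higher became 13 with averaged rounds. Leaving out a library gave 18 to 23 higher, 2 to 3 lower and 5 to 7 past both, and a clone 16 to 29 higher, 2 to 5 lower and 6 to 9 past both. Among all genes tested in HT29, 311 were called higher in the main fit, 874 with DESeq2, 102 with the random effect and 0 with averaged rounds. Past both thresholds HT29 had 343, 784, 121 and 0 in the same order. For HCT116 the main fit called 1240 higher, the random effect 660 and averaged rounds 273, and for SW480 the main fit called 4256 and averaged rounds 2312.

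Genes that differed between HT29 and HCT116 numbered 3 with a pseudocount of 0.1, 3 with the replicate block, 2 with the clone as a random effect and 2 to 7 without a clone. Between HT29 and SW480 they numbered 5 with the block, 4 with the random effect and 4 to 11 without a clone, and between HCT116 and SW480 2 with the random effect and 2 to 8 without a clone. With the replicate block, 3 genes differed between the HCT116 WT clones, beside 16.2% of all genes, and 17 between the KO clones, beside 21.5%. The block changed no other count by over 1.5 times. The log2 fold change of CTSS in HT29 was 2.47 without KO 38 and -3.91 without KO 28, and that of CTSH in HCT116 was 1.50 without KO 47 and -1.59 without KO 44. The cause of these changes was not tested, beyond fewer samples or clones in the fits that leave some out or average them. With 2 clones per group, the clone-level spread rests on few cultures, and genes at low counts, such as CTSS in HCT116, could not be tested.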
